A study of Mus musculus with 9 samples.

Results

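The meiotic cohesin and synaptonemal complex genes Smc1b, Stag3, Rec8, Rad21l, Hormad1, Sycp1, Sycp2, Sycp3, Syce1 and Syce2 were measured in mouse embryonic stem cells after knockdown of Apela. The 10 genes were chosen by name as a functional family, out of 19938 genes measured, and Smc1b was singled out because it fell with 1 of 2 hairpins. The family was put together with these comparisons in view, so the other members are not an unselected set either. Each was read from its brightest probe set with a single gene symbol. The cells, of the embryonic stem cell line R1E, were cultured in 15% serum, with the cytokine LIF at 1000 units/ml to hold them undifferentiated. All 9 arrays came from cells transduced with a lentivirus: 3 with the first short hairpin RNA against Apela (shApela_1), 3 with the second (shApela_2) and 3 with a hairpin against luciferase (shLuc), which has no target gene in mouse cells. The product of Apela is a small secreted hormone that acts on the apelin receptor. Sample titles number the replicates without saying whether each came from a culture of its own, and the p-values below measure the spread between these arrays, which may be technical. The labels give neither the hairpins' sequences nor how long after transduction RNA was taken.

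Cohesin is a ring of SMC proteins, a kleisin and a STAG subunit that holds sister chromatids together. In meiosis Smc1b, Rec8 or Rad21l, and Stag3 encode subunits that take the place of Smc1a, Rad21, and Stag1 or Stag2. On the chromosome axis that this cohesin forms, Sycp2 and Sycp3 proteins build the lateral elements of the synaptonemal complex, Sycp1 protein spans the gap between paired chromosomes, and Syce1 and Syce2 proteins make up the central element, while Hormad1 protein marks axes that are not yet paired. Most somatic cells silence these genes, and in mouse embryonic stem cells a variant Polycomb complex and DNA methylation hold many germline genes down.

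Levels are log2 values after RMA (robust multi-array average), and a difference of 1 on this scale is a change by a factor of 2 in signal. Apela averaged 9.70 ± 0.06 in shApela_1 cells and 9.72 ± 0.14 in shApela_2 cells, against 11.30 ± 0.10 in shLuc cells (SD, n = 3 each), or 32.9% of the shLuc signal with shApela_1 and 33.4% with shApela_2. All 12 embryonic stem cell markers examined, among them Pou5f1, Sox2 and Nanog, were brighter than the median probe set (log2 level 7.06), with list means from 11.59 to 11.61 in shApela_1, 11.56 to 11.65 in shApela_2 and 11.61 to 11.62 in shLuc. The third shApela_2 array stood apart from the other 8, with a median of 7.12 against 7.03 to 7.07, an interquartile range of 3.29 against 3.50 to 3.59, and correlations with other arrays of at most 0.995. For several genes, changes that depend on it are also given without it.

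Smc1b, the meiotic partner of Smc3 in the cohesin ring, had the widest spread of the family, 1.79 over the 9 arrays on the log2 scale. Its log2 levels were 7.12, 7.27 and 7.21 in shApela_1 cells and 8.50, 8.92 and 8.20 in shApela_2 cells, against 8.11, 8.40 and 8.13 in shLuc cells. All 3 shApela_1 arrays lay below all others, while the shApela_2 and shLuc arrays overlapped. The order of the group means was shApela_2, shLuc, shApela_1, and the upper 2 did not differ beyond their spread. The shApela_1 mean was lower than the shLuc mean by a log2 difference of -1.01 (SE 0.16, 95% interval -1.37 to -0.65), or 49.7% of the shLuc signal. In whole-culture RNA, fewer cells that express the gene and less RNA per cell cannot be told apart. Smc1b was chosen for this difference, so the p-value below tells how it was chosen and is no evidence for it.

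With shApela_1, Smc1b was the 1 member of 10 past the threshold of the fit (limma over all genes, Benjamini-Hochberg adjusted p under 0.05), where 0.196% of all genes were called lower. The choice of the gene rests on this same comparison, so nothing is read from that count. Smc1b lay just inside the threshold (adjusted p = 0.0494), and the next member outside it was Hormad1 (adjusted p = 0.161). The call was lost when array medians were centred or every probe set entered the fit, and when any 1 of 7 of the 9 arrays was left out, those of shApela_2 numbered 2 and 3 being the exceptions. The difference itself stayed between -1.06 and -0.92 in these leave-one-out fits, and leaving out a shApela_2 array cannot move it.

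**Figure D1:**
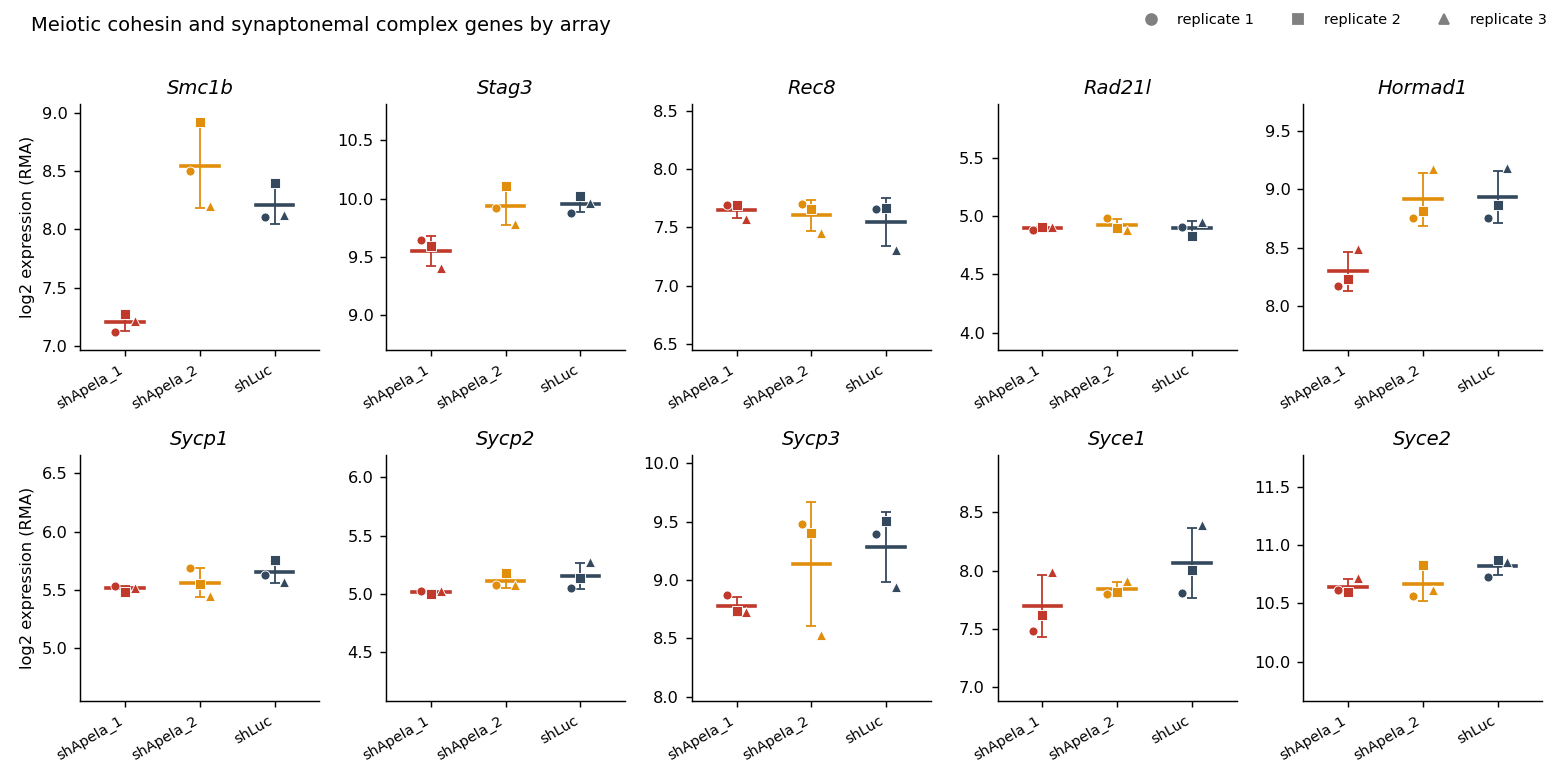
Log2 expression of the 10 genes on each of 9 arrays, in 1 panel per gene, each spanning the same height; points are arrays with a symbol for each replicate number, horizontal bars are group means and error bars are SD (n = 3). Smc1b lies between 7.12 and 7.27 in shApela_1 and at 8.11 or above in the other groups, while Rad21l stays between 4.83 and 4.98 on every array.

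Stag3, the meiotic STAG subunit, was lower in shApela_1 cells as well, by less. It had log2 levels of 9.65, 9.60 and 9.40 in shApela_1 cells and 9.92, 10.11 and 9.78 in shApela_2 cells, against 9.88, 10.02 and 9.96 in shLuc cells. The shApela_1 arrays were again below all the rest, and the other groups overlapped. The log2 difference of shApela_1 from shLuc was -0.40 (SE 0.09, limma, adjusted p = 0.166), or 75.5% of the shLuc signal, and did not pass. With the replicate number as a block it was close to the threshold (limma, adjusted p = 0.0546). Such a block takes arrays of equal number as belonging together, which the labels do not state.

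Neither meiotic kleisin showed a difference beyond its spread. Rec8 had log2 levels of 7.69, 7.69 and 7.57 in shApela_1 cells and 7.70, 7.66 and 7.45 in shApela_2 cells, against 7.66, 7.66 and 7.31 in shLuc cells. The third array was the lowest of each group. Rec8 differed from shLuc by 0.11 with shApela_1 (95% interval -0.13 to 0.34) and by 0.06 with shApela_2 (-0.17 to 0.30) on the log2 scale. Rad21l lay far below the median probe set, between 4.83 and 4.98 on all 9 arrays, a range of 0.15, and its second probe set averaged 4.70 in shApela_1, 4.68 in shApela_2 and 4.71 in shLuc. At such a level a change of the transcript may not be visible.

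The cohesin subunits of ordinary dividing cells were bright and varied little between groups. Smc1a, which Smc1b replaces, averaged 10.19 ± 0.04 in shApela_1, 10.22 ± 0.11 in shApela_2 and 10.22 ± 0.06 in shLuc. The log2 differences of Smc1a, Smc3, Rad21, Stag1 and Stag2 from shLuc lay between -0.08 and 0.01 with shApela_1 and between -0.17 and 0.06 with shApela_2. Of 18 measured genes for mitotic cohesin and its loading, release and protection, 0 passed with shApela_1 (limma, 0 at an unadjusted p under 0.05) and 0 with shApela_2 (limma, 2 at an unadjusted p under 0.05, beside 5.77% of all genes). The 2 were Stag1 at -0.17 and Stag2 at -0.12. In both, all shApela_2 arrays lay below all shLuc arrays. This held in 3 of the 18 genes and in 927 of all 19938. Their median log2 difference was -0.02 with shApela_1 and -0.05 with shApela_2, against medians of 0.01 and 0.02 over all genes. The smallest p values with shApela_1 were those of Stag1 at -0.07 and of Espl1, the separase that cuts cohesin at anaphase, at -0.09 (limma, adjusted p = 0.876 and 0.90).

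**Figure D2:**
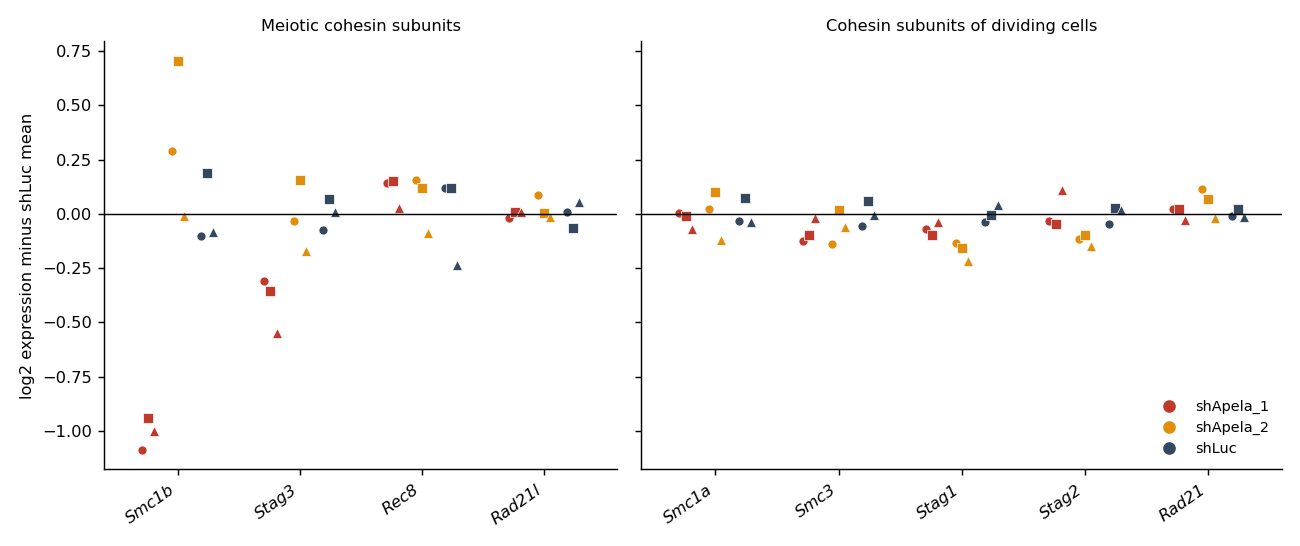
Log2 expression of meiotic (left) and mitotic (right) cohesin subunits on each array, minus the shLuc mean of the same gene; circles, squares and triangles are replicates 1, 2 and 3. Smc1b and Stag3 of shApela_1 lie below the other points of their genes, while the points of the mitotic subunits lie near 0 in all groups.

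Hormad1, which encodes an axis protein that recruits the recombination machinery, was the member with the next largest difference. Its log2 levels were 8.17, 8.23 and 8.49 in shApela_1 cells and 8.75, 8.82 and 9.17 in shApela_2 cells, against 8.75, 8.86 and 9.18 in shLuc cells. The shApela_1 arrays lay below all the others, the shApela_2 and shLuc arrays nearly coincided, and the third array was the highest of each group. Between arrays of equal number the log2 difference of shApela_1 from shLuc was -0.58, -0.63 and -0.70, a spread of 0.06 (SD).

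The replicate number therefore mattered for Hormad1. Without it the log2 difference of -0.64 (SE 0.14) did not pass (limma, adjusted p = 0.161), and with it as a block the same difference had an SE of 0.04 and passed (limma, adjusted p = 0.0044), beside 0.597% of all genes called lower in that fit. Members past the threshold in the block fit were Smc1b and Hormad1, 2 of 10. The second, dimmer Hormad1 probe set measured 5.57, 5.80 and 6.13 in shApela_1 cells and 6.76, 6.72 and 6.63 in shApela_2 cells, against 6.73, 6.98 and 7.21 in shLuc cells. Its log2 difference of -1.14 with shApela_1 was larger than that of the brighter one, and it was -0.27 with shApela_2. The positions of the probes were not available, so whether both probe sets read the same transcript was not checked. With the mean of both probe sets the difference was -0.89 (limma, adjusted p = 0.0408).

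For Sycp3, which encodes a protein of the lateral elements, the third array was the lowest of each group, where for Hormad1 it was the highest. Sycp3 had log2 levels of 8.87, 8.73 and 8.73 in shApela_1 cells and 9.48, 9.41 and 8.53 in shApela_2 cells, against 9.39, 9.51 and 8.94 in shLuc cells. The third arrays of shApela_2 and shLuc were low, so that the lowest value of all was the third shApela_2 array, and the shApela_1 arrays still lay below every shLuc array. The log2 difference of shApela_1 from shLuc was -0.50 (SE 0.24, limma, adjusted p = 0.725) and did not pass. With the replicate block its SE was 0.16, and it did not pass either (limma, adjusted p = 0.219). The difference of shApela_2 from shLuc was -0.14 on all arrays and 0.16 without the third array of that group.

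Syce1 and Syce2, of the central element, differed less. Syce1 had log2 levels of 7.48, 7.62 and 7.99 in shApela_1 cells and 7.79, 7.81 and 7.91 in shApela_2 cells, against 7.81, 8.0 and 8.39 in shLuc cells. The groups overlapped, and as with Hormad1 the third array was the highest of each. At equal numbers Syce1 was lower in shApela_1 than in shLuc by log2 differences of -0.33, -0.38 and -0.40. Syce2 lay between 10.60 and 10.72 in shApela_1 and between 10.56 and 10.83 in shApela_2, against 10.73 to 10.88 in shLuc. Its log2 difference from shLuc was -0.18 with shApela_1 (SE 0.08) and -0.15 with shApela_2 (SE 0.08), and neither difference passed (limma, adjusted p = 0.627 and 0.68).

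Sycp1 and Sycp2 were dim on all arrays. Sycp1, whose protein forms the transverse filaments, lay between 5.49 and 5.54 in shApela_1 and between 5.44 and 5.69 in shApela_2, against 5.57 to 5.76 in shLuc. Sycp2, the partner of Sycp3, lay between 5.0 and 5.03 in shApela_1 and between 5.08 and 5.18 in shApela_2, against 5.05 to 5.27 in shLuc. With Rad21l these are the 3 members below the median probe set, and the other 7 were above it. Probe sets differ in brightness for reasons other than transcript number, so this ranks no gene against another.

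Across the family, 7 of 10 genes had all shApela_1 arrays below all shLuc arrays, where 5.61% of all genes did. These were Smc1b, Stag3, Hormad1, Sycp1, Sycp2, Sycp3 and Syce2. In Sycp1, Sycp2 and Syce2 the gap was narrow. The nearest arrays of shApela_1 and shLuc lay at 5.54 and 5.57, 5.03 and 5.05, and 10.72 and 10.73. Sycp1 and Sycp2 were also dim. The family's median log2 difference with shApela_1 was -0.27 with Smc1b and -0.18 without it, against 0.01 over all genes. Since the family was put together with this comparison in view, these figures describe it and support nothing further. The log2 difference of each member but Rec8 and Rad21l stayed below 0 in every alternative that could be fitted, though several of these cannot move a difference of group means.

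With shApela_2, 0 of 10 members passed (limma, 0 at an unadjusted p under 0.05), where 0.0150% of all genes were called. No member had groups without overlap, beside 10.3% of all genes in either direction. The median log2 difference was -0.03, and the range ran from -0.23 for Syce1 to 0.33 for Smc1b. The value for Smc1b (95% interval -0.03 to 0.69) turned on single arrays: it was 0.50 without the third shApela_2 array and 0.14 without the second. Both hairpins were set against the same shLuc arrays, so the comparisons are not independent.

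**Figure D3:**
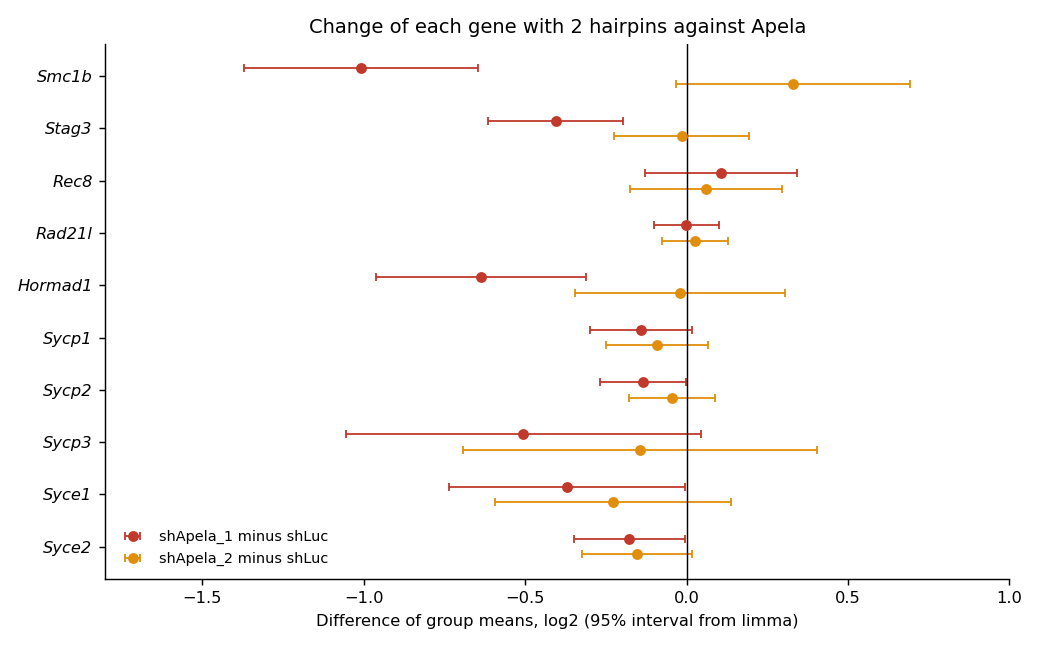
Log2 difference of each hairpin group from shLuc for the 10 genes, with 95% intervals from the fit of all 9 arrays. The shApela_1 differences of Smc1b (-1.01), Hormad1 (-0.64), Sycp3 (-0.50) and Stag3 (-0.40) are the largest, and all shApela_2 intervals include 0.

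Set against each other, the hairpins differed for Smc1b more than for any other gene measured in the upward direction. The shApela_2 mean was 8.54 ± 0.36 and the shApela_1 mean 7.20 ± 0.07 (SD, n = 3 each), a log2 difference of 1.34 (SE 0.16, 95% interval 0.98 to 1.70). Smc1b was the 1 member of 10 past the threshold here, where 0.356% of all genes were called higher, and the choice of the gene rests on this contrast too. The call was lost with the compared arrays alone in the fit, and without the first or the second shApela_1 array, and the difference was 1.51 without the third shApela_2 array. In 4 members, Smc1b, Stag3, Hormad1 and Sycp2, all shApela_2 arrays lay above all shApela_1 arrays, where 7.49% of all genes did.

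Hormad1 and Stag3 also passed between the hairpins once replicate numbers were a block. The log2 difference of shApela_2 from shApela_1 was 0.62 for Hormad1 (limma, adjusted p = 0.105, and 0.00411 with the block) and 0.39 for Stag3 (limma, adjusted p = 0.11, and 0.036 with the block). In that fit 3 of 10 members were called higher, beside 1.26% of all genes. Between arrays of equal number the differences were 0.58, 0.58 and 0.69 for Hormad1 and 0.28, 0.51 and 0.38 for Stag3. Apela itself was equal in both groups within 0.02, with a 95% interval from -0.16 to 0.20.

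The promoters of the 4 members with the largest differences are shown, since repressors of germline genes are known to act there. E2f6, a repressor of the E2F family, is known to silence Smc1b and Stag3 in mouse somatic cells, and works in the variant Polycomb complex together with Mga and Max, which bind the letters CACGTG. Each sequence, from RefSeq, runs 5′ to 3′ from 180 bases before the gene's first listed start to 10 bases after it. Capitals mark TTCCCGC, an E2F-like motif, and CACGTG on either strand.
Smc1b promoter, GRCm38.p6 chr15:85131948-85132137, minus strand: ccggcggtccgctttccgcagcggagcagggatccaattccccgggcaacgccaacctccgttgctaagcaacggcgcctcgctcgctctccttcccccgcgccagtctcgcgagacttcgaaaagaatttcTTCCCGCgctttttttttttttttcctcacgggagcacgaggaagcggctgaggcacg
Stag3 promoter, GRCm38.p6 chr5:138280329-138280518, plus strand: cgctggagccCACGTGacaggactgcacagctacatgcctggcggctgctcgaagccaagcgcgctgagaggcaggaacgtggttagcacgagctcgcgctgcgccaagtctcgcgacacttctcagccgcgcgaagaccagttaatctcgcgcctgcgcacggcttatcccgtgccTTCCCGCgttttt
Hormad1 promoter, GRCm38.p6 chr3:95559497-95559686, plus strand: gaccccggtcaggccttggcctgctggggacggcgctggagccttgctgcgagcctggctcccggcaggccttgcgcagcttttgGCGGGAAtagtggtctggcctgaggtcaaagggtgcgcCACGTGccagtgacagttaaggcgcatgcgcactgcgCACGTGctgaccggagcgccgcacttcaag
Sycp3 promoter, GRCm38.p6 chr10:88459407-88459596, plus strand: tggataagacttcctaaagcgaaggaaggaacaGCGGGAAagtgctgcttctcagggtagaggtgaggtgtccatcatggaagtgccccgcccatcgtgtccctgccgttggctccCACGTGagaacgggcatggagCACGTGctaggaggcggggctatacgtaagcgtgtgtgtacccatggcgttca
These 4 were the members with TTCCCGC or its reverse complement GCGGGAA in the 300 bases around the first listed start, 48 bases before it in Smc1b, 3 in Stag3, 95 in Hormad1 and 147 in Sycp3. Of all 32851 RefSeq promoters searched, 4.60% hold it. TTCCCGC and CACGTG both contain the letters CG. These occurred 29 times in the 300 bases of Smc1b, 30 in Stag3, 24 in Hormad1 and 15 in Sycp3, against a median of 7 over all promoters. The shares over all promoters are therefore not shares among promoters of like composition. CACGTG, which 7.15% of promoters hold, was found in Stag3, Hormad1, Sycp3 and Sycp1 and not in this window of Smc1b. The shorter TCCCGC, contained in TTCCCGC, was in 7 of 10 members and 20.0% of promoters, and CCAAT in 5 of 10 members and 37.4% of promoters. Of the 2 members with another listed start, Hormad1 held the same motifs there, and Syce2 held TTCCCGC and CACGTG at its other start alone. The 4 genes shown were picked by their differences with shApela_1, and 4 motifs were searched. That TTCCCGC fell in these genes is therefore a description and supports nothing further. Syce1, at -0.37 beside -0.40 for Stag3, was left out and held none of the motifs at its start. These matches describe the letters, and no binding was measured.

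Of the genes for such repressors, E2f6 averaged 8.49 ± 0.10 in shApela_1, 8.59 ± 0.07 in shApela_2 and 8.59 ± 0.04 in shLuc. Of 25 measured repressor genes of the variant Polycomb complex, DNA methylation and histone modification, 0 passed with shApela_1 and 0 with shApela_2 (limma, 0 at an unadjusted p under 0.05 in each). With shApela_1 the smallest p values belonged to Mga, the complex's DNA-binding scaffold, at -0.10 and Dnmt3l, a cofactor of DNA methylation, at -0.24 (limma, adjusted p = 0.767 and 0.89). With the replicate block 0 of the 25 passed with shApela_1, where 0.953% of all genes did in either direction, Dnmt3l coming closest (limma, adjusted p = 0.0634). Between the hairpins the block put 4 of 25 past the threshold, beside 3.28% of all genes. Dnmt3l, at a log2 difference of 0.25, and L3mbtl2, at 0.25, were higher in shApela_2 than in shApela_1 (limma, adjusted p = 0.0341 for Dnmt3l and 0.0263 for L3mbtl2), and Yaf2, at -0.33, and Tfdp1, at -0.22, were lower (limma, adjusted p = 0.045 for Yaf2 and 0.0465 for Tfdp1). Without the block 0 of the 25 passed there (limma, 3 at an unadjusted p under 0.05, all lower). The list's median log2 difference was 0.02 with shApela_1 and -0.01 with shApela_2.

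Smc1b begins close to the gene Ribc2, which is read in the opposite direction. The first listed starts lie 140 bases apart in GRCm38.p6, and the promoter windows share 240 bases, the E2F-like motif included. Ribc2, which encodes a protein of ciliary microtubules, averaged 6.02 ± 0.03 in shApela_1, 6.10 ± 0.13 in shApela_2 and 5.97 ± 0.04 in shLuc, below the median probe set. Fam118a, the gene on the other side, averaged 8.26 ± 0.02 in shApela_1, 8.16 ± 0.13 in shApela_2 and 8.26 ± 0.01 in shLuc. Neither neighbour showed the pattern of Smc1b.

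The genes whose levels followed those of Smc1b most closely were sought over all 9 arrays, by the root mean square difference of log2 levels after each gene was centred on its own mean. The nearest was Saraf, an inhibitor of store-operated calcium entry, at 0.22. Mprip, a partner of myosin phosphatase (0.31), Slc46a3, a lysosomal transporter (0.32), Meioc, which is needed to sustain meiotic prophase (0.32), and the imprinted zinc finger gene Peg3 (0.32) came next, where the median over all genes was 0.60. Saraf had log2 levels of 7.30, 7.31 and 7.38 in shApela_1 cells and 8.29, 8.36 and 8.0 in shApela_2 cells, against 8.10, 8.33 and 8.19 in shLuc cells. Like Smc1b it was low on the 3 shApela_1 arrays and overlapped in the other groups. The closest member was Stag3 at 0.41, with 36 genes nearer, followed by Hormad1 at 0.42 and Sycp3 at 0.45.

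**Figure D4:**
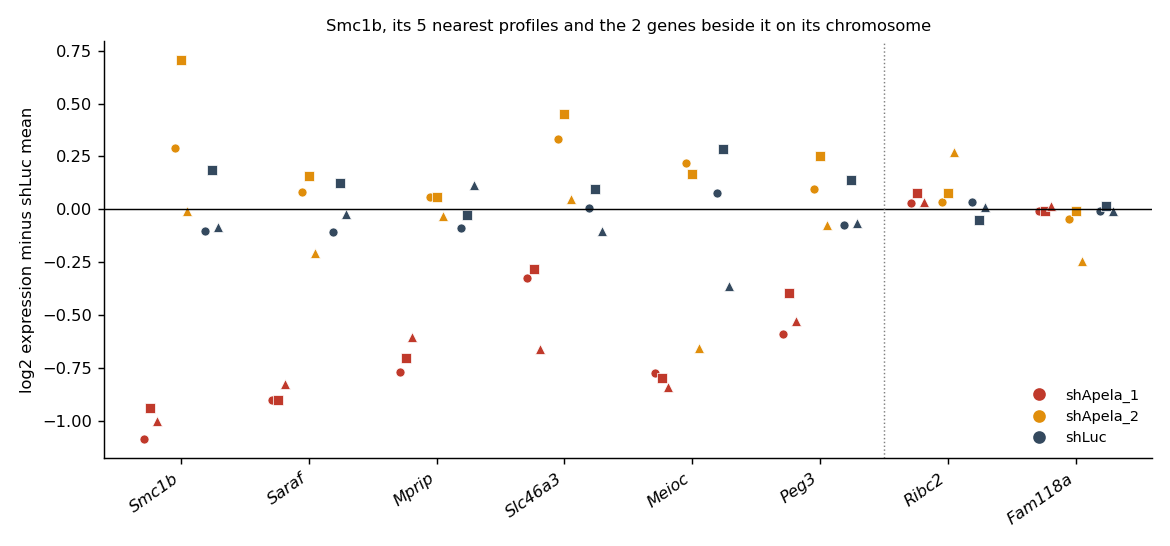
Log2 expression on each array minus the shLuc mean of the same gene, for Smc1b, the 5 genes with the nearest profile, and, right of the dotted line, the 2 genes beside Smc1b on its chromosome; circles, squares and triangles are replicates 1, 2 and 3. The 5 genes were selected for likeness to Smc1b, and Ribc2 and Fam118a lack its low shApela_1 values.

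The further genes listed here for meiotic chromosomes passed in neither hairpin group, with or without the replicate block. Zcwpw1, whose protein acts at meiotic break sites, was listed with the other germline genes and is given with them. Of 11 further genes for the synaptonemal complex, the axis and telomere attachment, 0 passed with shApela_1 (limma, 2 at an unadjusted p under 0.05, both lower, beside 3.38% of all genes), with a median of -0.04. Terb2 and Majin, which tie telomeres to the nuclear envelope, had log2 differences of -0.18 and -0.15 (limma, adjusted p = 0.375 and 0.475). Of 22 genes for meiotic recombination and entry, 0 passed (limma, 6 at an unadjusted p under 0.05, all lower, beside the same 3.38%), with a median of -0.09. These lists were made with earlier results known, and the counts describe them. Meioc differed by -0.80 (limma, adjusted p = 0.30, and 0.0656 with the block) and Mcmdc2, a helicase-like factor of meiotic recombination, by -0.14 (limma, adjusted p = 0.262). Meioc was higher in shApela_2 than in shApela_1 by 0.71 (limma, adjusted p = 0.242). Without the third shApela_2 array this was 0.997 and passed (limma, adjusted p = 0.0421). With shApela_2 the medians were 0.01 and -0.06, and 0 genes of either list passed (limma, 0 and 4 at an unadjusted p under 0.05, where 5.77% of all genes were).

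Of 20 germline genes listed apart from these, 2 fell with shApela_1, where 0.196% of all genes did. Both belong to the piRNA pathway that silences transposons. Mael had log2 levels of 9.89, 9.80 and 9.79 in shApela_1 cells and 10.32, 10.28 and 10.22 in shApela_2 cells, against 10.34, 10.34 and 10.40 in shLuc cells. Tdrd12 had 9.63, 9.60 and 9.87 in shApela_1 cells and 10.37, 10.43 and 10.42 in shApela_2 cells, against 10.21, 10.26 and 10.40 in shLuc cells. Both were lowest on the 3 shApela_1 arrays. The differences from shLuc were -0.54 for Mael (SE 0.04, limma, adjusted p = 0.00501) and -0.59 for Tdrd12 (SE 0.08, limma, adjusted p = 0.0331). The call of Tdrd12 was lost when any 1 of 7 of the 9 arrays was left out (limma, adjusted p up to 0.168), and that of Mael without the second shApela_1 array (limma, adjusted p = 0.0597). Both genes were listed with their change already known. At an unadjusted p under 0.05, 11 of the 20 were lower and 1 higher in limma, where 3.38% of all genes were lower. With the replicate block 5 of 20 passed, all lower, where 0.597% of all genes did: besides Mael and Tdrd12 these were Tex19.1, Zcwpw1 and Mov10l1 (limma, adjusted p = 0.0265 for Tex19.1, 0.011 for Zcwpw1 and 0.0446 for Mov10l1). The list's median log2 difference was -0.17 with shApela_1, with 16 of 20 genes below shLuc, beside 45.5% of all genes, and -0.03 with shApela_2.

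Over 10 measured germ cell markers, Mael among them, the mean log2 level ranged from 7.80 to 7.90 in shApela_1 and from 7.89 to 8.01 in shApela_2, against 7.98 to 8.11 in shLuc. The shApela_2 range overlapped both others. With shApela_1 1 of the 10 passed the test, where 0.196% of all genes were called lower. It was Mael, which was listed with its change known. Ddx4, a helicase that defines germ cells, averaged 8.31 ± 0.08 in shApela_1 and 8.23 ± 0.03 in shApela_2, against 8.55 ± 0.12 in shLuc. Unlike Smc1b, its mean was below shLuc with both hairpins, and the hairpin groups overlapped. Dazl averaged 8.35 ± 0.14 in shApela_1 and 8.19 ± 0.17 in shApela_2, against 8.48 ± 0.20 in shLuc. With each hairpin 8 of the 10 markers were below shLuc and 2 above. Over all genes 45.5% were below with shApela_1 and 42.4% with shApela_2. Nanos2, a dim marker, went the other way with both hairpins, at 5.77 in shApela_1 and 5.83 in shApela_2, against 5.71 in shLuc. Dnd1 was higher with shApela_1, at 6.87 against 6.78 in shLuc. The array values have no point that marks absence, and the part of these markers in the result was not tested.

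**Figure D5:**
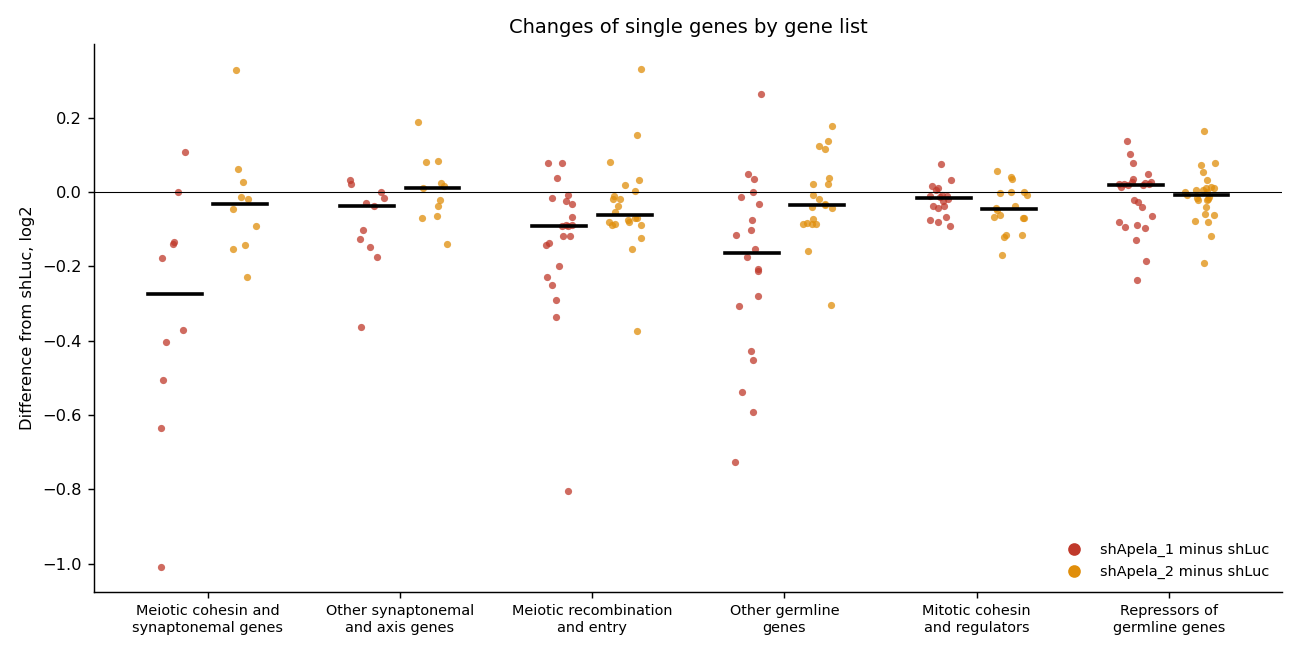
Log2 difference from shLuc of every measured gene in 6 lists, with shApela_1 left of shApela_2 in each pair; points are genes, spread sideways at random, and black bars are medians. The medians with shApela_1 were -0.27 for the meiotic cohesin and synaptonemal genes, -0.17 for other germline genes and between -0.09 and 0.02 for the other 4 lists.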

How the data were processed

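Total RNA of the 9 samples was hybridised to Affymetrix arrays. The deposited table holds log2 values of each probe set, which the authors computed by RMA with Partek 6.6, per the submitters' processing notes. No source used here states the settings or the log base, and base 2 was inferred from the range. Scanner files were not analysed here. Precision is limited by the number of arrays.

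GEO's platform annotation gave 21775 of 28853 probe sets 1 gene symbol, 1578 several and 5500 none. Genes were named from the first kind, and 998 of the 19938 genes had more than 1 probe set. All 10 members were found. Groups came from the sample titles. Tests used limma 3.58.1 under R 4.3.3 (moderated, two-sided, with 6 residual and 2.72 prior degrees of freedom) in 1 fit of all 9 arrays, for 3 comparisons, with Benjamini-Hochberg adjustment over all genes and a threshold of 0.05. The fit was run on simulated data with independent noise on each array. These held no effect of the replicate number, so the run does not test the calls where arrays of equal number are correlated.

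Arrays of equal number correlated in their deviations from the group means by 0.44, 0.40 and 0.68 for shApela_1 with shLuc, 0.18, 0.21 and 0.21 for shApela_2 with shApela_1, and -0.01, 0.67 and 0.47 for shApela_2 with shLuc. The main fit did not pair arrays by number. The replicate block was a factor for the number in a fit of all 9 arrays, so it entered all 3 comparisons. That equal numbers belong together was read from these uneven correlations alone, without correlations between unequal numbers beside them.

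Named besides the members were Apela, cohesin paralogs, the neighbours of Smc1b, its 5 nearest profiles (predicted genes left out), and from each list the genes past the threshold or the 2 with the smallest p with shApela_1. E2f6, Ddx4, Dazl and the genes of the closing observations were added for their known roles or after their values were seen. Members and lists were chosen with earlier results of these data known. Markers of trophectoderm (9 genes), primitive endoderm (8), fibroblast feeder cells (8) and cells resembling the early cleavage embryo (3) were measured too, and 0 passed with either hairpin (limma, at an unadjusted p under 0.05 2, 2, 0 and 0 genes with shApela_1 and 0, 1, 1 and 0 with shApela_2). Over all 19938 genes, 1534 had an unadjusted p under 0.05 in limma with shApela_1 and 1151 with shApela_2. With the replicate block the trophectoderm markers Krt8 (-0.49, limma, adjusted p = 0.0263) and Krt18 (-0.46, limma, adjusted p = 0.0308) were lower with shApela_1, beside 0.597% of all genes. Krt8 was higher in shApela_2 than in shApela_1 (0.32, limma, adjusted p = 0.0467), beside 1.26% of all genes.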

Additional observations from a re-analysis of the deposited data

Results flagged for a closer look

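Among the genes named here, 7 differed between the hairpin groups in a direct test of shApela_2 against shApela_1 (limma, Benjamini-Hochberg over all genes, n = 3 each). Smc1b was higher in shApela_2 by a log2 difference of 1.34 (adjusted p = 0.0107). Mael was higher by 0.45 (adjusted p = 0.00597) and Tdrd12 by 0.71 (adjusted p = 0.00865). Among the genes selected for their likeness to Smc1b, Saraf was higher by 0.89 (adjusted p = 0.00823), Mprip by 0.72 (adjusted p = 0.0044), Slc46a3 by 0.70 (adjusted p = 0.0469) and Peg3 by 0.59 (adjusted p = 0.0283). In each of the 7, all 3 shApela_2 arrays lay above all 3 shApela_1 arrays. Smc1b was chosen for this difference, the last 4 for likeness to it, and Mael and Tdrd12 were listed with their change known, so all 7 are descriptions and none is independent support. With 1 array left out in turn, Mael and Mprip stayed under the threshold of 0.05, which says nothing of how they were chosen. Those of Smc1b, Tdrd12 and Saraf were lost without the first shApela_1 array (limma, adjusted p = 0.0628 for Smc1b, 0.0562 for Tdrd12 and 0.0553 for Saraf) or the second (0.0663 for Smc1b, 0.0525 for Tdrd12 and 0.0525 for Saraf). The call of Peg3 was lost in 7 of the 9 such fits, the second shLuc and the third shApela_2 array being the exceptions (limma, adjusted p up to 0.136). That of Slc46a3 was lost in 8, the third shApela_2 array being the exception (limma, adjusted p up to 0.143).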

How the results depend on the processing

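Over 17 alternatives and 3 comparisons, 500 of 501 member differences moved by less than the spread between replicates, and the exception was Hormad1 with shApela_1, at -0.89 with the mean of its probe sets. Many of these could not move. An intensity trend, the dim filter, the compared arrays alone and the replicate block leave a difference of group means as it was. So does leaving out an array of the group not compared. The count of 500 therefore overstates stability. The calls varied with the setting. With shApela_1, 67 genes passed (28 higher, 39 lower), against 37 with an intensity trend and robust prior, 31 with centred array medians (10 higher, 21 lower), 44 with the compared arrays alone, 190 with the replicate block, and 3 to 146 with 1 array left out; a second quantile normalization gave 29 higher and 70 lower. Members past the threshold there were 1, against 0 with centred medians or every probe set in the fit, 2 with the replicate block or the mean of probe sets, and 0 to 1 with 1 array left out. With shApela_2, 3 genes passed, against 7 after a second quantile normalization, 8 with the replicate block and 2 to 6 with 1 array left out, and 0 members under every alternative. Between the hairpins 189 genes passed (71 higher, 118 lower), against 28 with the compared arrays alone, 653 with the replicate block and 19 to 222 with 1 array left out. The split was 134 higher and 120 lower after a second quantile normalization, and 38 higher and 125 lower with centred medians. Members past it were 1, against 2 after a second quantile normalization (Stag3 joined, adjusted p = 0.0464 in limma) or with the mean of probe sets (Hormad1 joined), 3 with the block, 0 with the compared arrays alone, and 0 to 1 with 1 array left out. Leaving out dim genes removed Rad21l, Sycp1 and Sycp2 and kept the other 7. Scaling moved the median of all genes by at most 0.04. The cause of these shifts was not tested.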

Other observations

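The following germline genes were chosen after their values were seen. Ddx4 lay between 8.23 and 8.39 in shApela_1 and between 8.19 and 8.26 in shApela_2, against 8.42 to 8.66 in shLuc, so that both hairpin groups were below the shared control (limma, adjusted p = 0.258 with shApela_1 and 0.44 with shApela_2). Meiob, which encodes a single-strand DNA-binding protein of meiotic recombination, had log2 levels of 4.65, 4.65 and 4.64 in shApela_1 cells and 5.68, 5.55 and 4.58 in shApela_2 cells, against 5.0, 5.01 and 4.81 in shLuc cells. Its first and second shApela_2 arrays were the highest of all 9, and the third was the lowest. Zcwpw1, a reader of histone marks at meiotic break sites, had 7.71, 7.50 and 7.93 in shApela_1 cells and 8.45, 8.25 and 8.68 in shApela_2 cells, against 8.27, 8.25 and 8.80 in shLuc cells, with the shApela_1 arrays lowest (difference from shLuc -0.73, limma, adjusted p = 0.18, and 0.011 with the replicate block).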
